A study of Mus musculus with 6 samples.

Results

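Fat absorption and lipoprotein assembly were followed through 10 genes, which were taken by gene name from the deposited gene table. They were Apob, Mttp, Apoa1, Apoa4, Apoc3, Fabp1, Fabp2, Cd36, Mogat2 and Dgat1. They made up 10 of the 28752 genes listed, and all 10 passed the filter on low counts that left 18348 genes for testing.

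The samples were mouse Lgr5+ intestinal stem cells (ISCs) from Lgr5-GFP reporter mice, sorted by flow cytometry for GFP and grown into crypt-villus organoids. All 6 samples went through hypoxia/reoxygenation (H/R), with 4 h at 2% O2. The 3 control samples carried the vector and the genotype label WT, and the other 3 samples overexpressed circEZH2_005, a circular RNA of the Ezh2 locus, from an adenovirus. The labels gave 72 h between infection and H/R. The comparison asked which mRNAs differ when circEZH2_005 is overexpressed under H/R, and no sample kept in normal oxygen was analysed here. The study speaks of biological replicates, but neither the labels nor the methods say whether these were separate cultures or animals, so each p-value measures only the spread between these samples.

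Enterocytes take up fatty acids and monoacylglycerol from the gut lumen and rebuild them into triglyceride in the endoplasmic reticulum. The triglyceride is loaded onto apolipoprotein B by the microsomal triglyceride transfer protein, and smaller apolipoproteins join the surface of the growing particle. The particles leave the cell as chylomicrons and reach the lymph, so this programme belongs to mature absorptive cells of the villus more than to the crypt.

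Sequencing gave between 71506487 and 79919893 counts per sample. The labelled cell type was intestinal crypt stem cells, and markers of both stem cells and enterocytes were present. Lgr5, the stem cell receptor that defines the sorted population, had 15.5 CPM (counts rescaled so that libraries of unlike depth and composition compare) with the vector and 8.45 CPM with circEZH2_005 on average. Sis, the brush border sucrase-isomaltase and the enterocyte marker with the most counts, had 4344 and 3555 CPM, although 9 of the 11 enterocyte markers had log2 fold changes above 0. The summed CPM of 7 leukocyte markers was 77.3, 217 and 93.3 with the vector (samples 1, 2 and 3 in turn, as in all lists of values here) and 489.9, 369.9 and 272 with circEZH2_005. Control columns in the table were named for a negative control and were read as the vector samples, since the labels hold no other control.

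Among the 10 genes, 2 apolipoproteins of the particle surface, Apoc3 and Apoa4, rose with circEZH2_005 and 0 fell at an adjusted p under 0.05 in edgeR's quasi-likelihood test. Over all genes tested, the same threshold called 2.69% higher and 0.986% lower. At an unadjusted p under 0.05, 4 of the 10 were higher and 0 lower, a threshold whose share of all genes is not given here. DESeq2 called 4 of the 10 higher and 0 lower after adjustment, and 1588 higher and 701 lower of the 28752 genes given to it. Its default filter can leave genes of low count without an adjusted p, and the number it adjusted over is not given here. Apoc3 was 3.40-fold and Apoa4 1.88-fold as abundant as with the vector. Apoa1 was at 1.82-fold and Fabp2 at 1.97-fold, and neither passed. The genes for particle loading, re-esterification and uptake had log2 fold changes between 0.18 and 0.36, and Fabp1 had the only negative value, -0.37. By the other call, a fold change over 2 with an unadjusted p under 0.05, 1 of the 10 genes was higher (Apoc3) and 0, with a fold change under 0.5, were lower. That call took 6.22% of all genes as higher and 1.34% as lower. The median log2 fold change of the 10 genes was 0.32, and that of all genes tested was 2.15e-05. The median of the 10 was 0.62 without circEZH2_005 sample 1 and 0.21 with limma on log2(FPKM + 1).

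**Figure D1:**
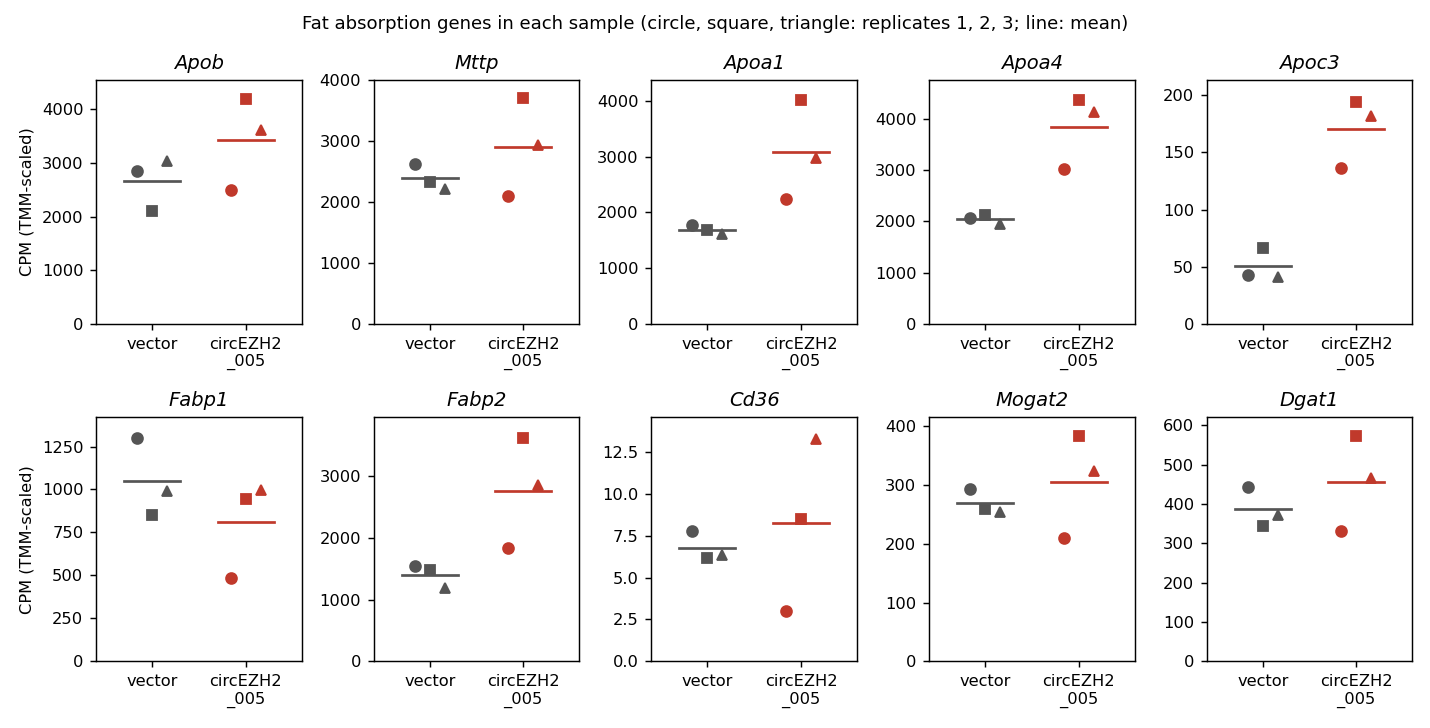
CPM of each of the 10 genes in each sample, with the vector in grey and circEZH2_005 in red; circles, squares and triangles are samples 1, 2 and 3 of a group, and the line is the mean of 3. For Apoc3, Apoa4, Apoa1 and Fabp2 all circEZH2_005 samples lie above all vector samples, and circEZH2_005 sample 1 is the lowest of its group in every panel.

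Apoc3 encodes the small apolipoprotein that slows the clearing of triglyceride-rich particles from blood. Its level was 43.3, 66.4 and 41.3 CPM with the vector and 137, 194 and 182 CPM with circEZH2_005. The lowest circEZH2_005 sample lay clearly above the highest vector sample, which was sample 2. This gave a log2 fold change of 1.76 ± 0.21 (standard error, n = 3 per group), at an adjusted p of 0.0138 from edgeR. The call was lost when circEZH2_005 sample 2 (adjusted p = 0.0630 from edgeR), vector sample 1 (0.0772) or vector sample 3 (0.0841) was left out, with log2 fold changes of 1.66, 1.67 and 1.64.

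Apoa4, a major apolipoprotein of the chylomicron that the intestine makes in response to fat, had 2061, 2122 and 1950 CPM in the vector samples and 3012, 4371 and 4141 CPM in the circEZH2_005 samples. The vector samples lay close together, and all circEZH2_005 samples were higher, with sample 1 the nearest to them. On the log2 scale the fold change was 0.91 ± 0.15 (standard error) with an adjusted p of 0.0279 from edgeR. This call was lost without circEZH2_005 sample 2 or 3 or vector sample 1 or 3, with adjusted p between 0.0722 and 0.138 from edgeR, and without the filter on low counts (0.0591). The genes Gm47528 and Gm10680 on the other strand share exon sequence with Apoa4, at means of 10.01 and 0.709 CPM with the vector and 15.5 and 9.57 CPM with circEZH2_005, and whether reads were assigned by strand is not known.

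Apoa1, the main protein of high-density lipoprotein, is made by intestine as well as liver. Its values were 1770, 1685 and 1614 CPM with the vector and 2239, 4009 and 2976 CPM with circEZH2_005. The groups did not overlap, but the circEZH2_005 samples were spread over a 1.79-fold range and the vector samples over a narrow one. A log2 fold change of 0.86 came with a standard error of 0.20, and the gene missed the threshold at an adjusted p of 0.0565 from edgeR. Apoa1 passed without circEZH2_005 sample 1, where the log2 fold change was 1.05 and edgeR's adjusted p 0.0169.

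Apoa1, Apoc3 and Apoa4 lie next to each other on chromosome 9, from 46228580 to 46243459 (GRCm38), a span of 14.88 kb in which Apoc3 is read from the minus strand and the others from the plus strand. Within 200 kb on either side the table listed 7 other genes, of which 5 were tested and 0 were called by edgeR, DESeq2 or limma, with 1, Gm10680, at an unadjusted p under 0.05 in edgeR (log2 fold change 3.76, adjusted p = 0.0989). Their median log2 fold change was 0.04. Sik3, the kinase gene upstream of Apoa1, had 29.5 CPM with the vector and 30.4 CPM with circEZH2_005. Bud13, a splicing factor gene on the far side of Apoa4, had 11.1 and 11.2 CPM. Apoa5, the remaining apolipoprotein gene of the cluster, had 19 counts over all 6 samples and was not tested.

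Fabp2 and Fabp1 encode fatty acid carriers of the enterocyte cytoplasm, and their changes were not tested against each other. Fabp2, the intestinal form, had 1546, 1480 and 1191 CPM with the vector and 1830, 3612 and 2850 CPM with circEZH2_005. All circEZH2_005 samples were above all vector samples, with sample 1 only a little above. Fabp2 had a log2 fold change of 0.98 ± 0.24 (standard error), which edgeR gave an adjusted p of 0.0622. It passed without circEZH2_005 sample 1, where the log2 fold change was 1.20 and edgeR's adjusted p 0.0156.

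Fabp1, the form shared with liver, had 1300, 852 and 994 CPM with the vector and 485, 945 and 999 CPM with circEZH2_005. The groups overlapped, since circEZH2_005 samples 2 and 3 lay inside the range of the vector samples and only sample 1 lay below it. The difference was -0.37 ± 0.28 on the log2 scale (standard error), with an adjusted p of 0.470 from edgeR. It stayed negative in each of the 14 alternative fits, from -0.55 without circEZH2_005 sample 3 to -0.11 without circEZH2_005 sample 1, with -0.19 without vector sample 1.

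Sequence upstream of the start was taken from RefSeq (GRCm38.p6), which gave a window of 250 bases for 7 of the 10 genes, the exceptions being Apoc3, Dgat1 and Mogat2. Apoa4 and Fabp2 are shown because both held the letters CAAAGTNCA, a form of the site bound by the HNF4 nuclear receptors of enterocytes. Apoa1 is shown as a gene whose groups also did not overlap and whose window held no match, and Fabp1 as the gene with a negative fold change. The bases below run 5′ to 3′ in the direction of the gene and stop before its start both in RefSeq and in the deposited table. Capitals mark matches to the motifs searched.

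Apoa4: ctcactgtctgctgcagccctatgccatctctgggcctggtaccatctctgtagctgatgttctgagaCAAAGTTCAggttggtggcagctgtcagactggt
Fabp2: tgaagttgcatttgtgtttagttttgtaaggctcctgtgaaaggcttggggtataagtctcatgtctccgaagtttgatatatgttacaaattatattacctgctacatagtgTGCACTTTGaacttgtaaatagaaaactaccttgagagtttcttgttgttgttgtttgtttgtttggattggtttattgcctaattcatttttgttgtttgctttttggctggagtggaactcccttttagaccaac
Apoa1: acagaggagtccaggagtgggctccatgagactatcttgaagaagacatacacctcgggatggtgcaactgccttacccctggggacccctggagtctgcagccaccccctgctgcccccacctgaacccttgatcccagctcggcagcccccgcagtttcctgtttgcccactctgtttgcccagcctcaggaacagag
Fabp1: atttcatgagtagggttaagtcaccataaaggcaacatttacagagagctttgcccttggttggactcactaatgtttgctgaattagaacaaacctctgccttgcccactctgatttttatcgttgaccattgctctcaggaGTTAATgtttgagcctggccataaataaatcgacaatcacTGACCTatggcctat

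These stretches lie at chr9:46240594-46240695 (Apoa4), chr3:122894822-122895071 (Fabp2), chr9:46228380-46228579 (Apoa1) and chr6:71199629-71199826 (Fabp1), all on the plus strand. The match in Apoa4 began 182 bases before the RefSeq start, and that in Fabp2, on the minus strand, 137 bases before it. CAAAGTNCA was found on either strand in 1.19% of 32851 RefSeq windows of 250 bases, and in 2 of the 7 windows of these genes. A search on both strands also covered the HNF1 half-site GTTAAT (in 6.43% of windows), the nuclear receptor half-site AGGTCA (14.0%), the GATA site GATAAG (6.55%) and the TATA box TATAAA (12.4%). No match of these motifs overlapped another in the windows of the 7 genes. Fabp1 held the HNF1 half-site 107 bases and the nuclear receptor half-site, on the minus strand, 67 bases before the start. In its bases that are not printed it held the nuclear receptor half-site again and the TATA box. Apob held the GATA site and the TATA box, Cd36 held the nuclear receptor half-site, and Apoa1 and Mttp held none of the motifs. The Cd36 window, chr5:17835897-17836146, lies inside the gene as deposited, which runs from 17781690 to 17888801 on the minus strand. Motifs were chosen with the results known, and a match is a description of letters only. Hnf4a itself, named here for the motif, had 977 ± 8.20 CPM with the vector and 1127 ± 35.6 CPM with circEZH2_005 (SD, n = 3), or 0.21 higher on the log2 scale at an adjusted p of 0.171 from edgeR.

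**Figure D2:**
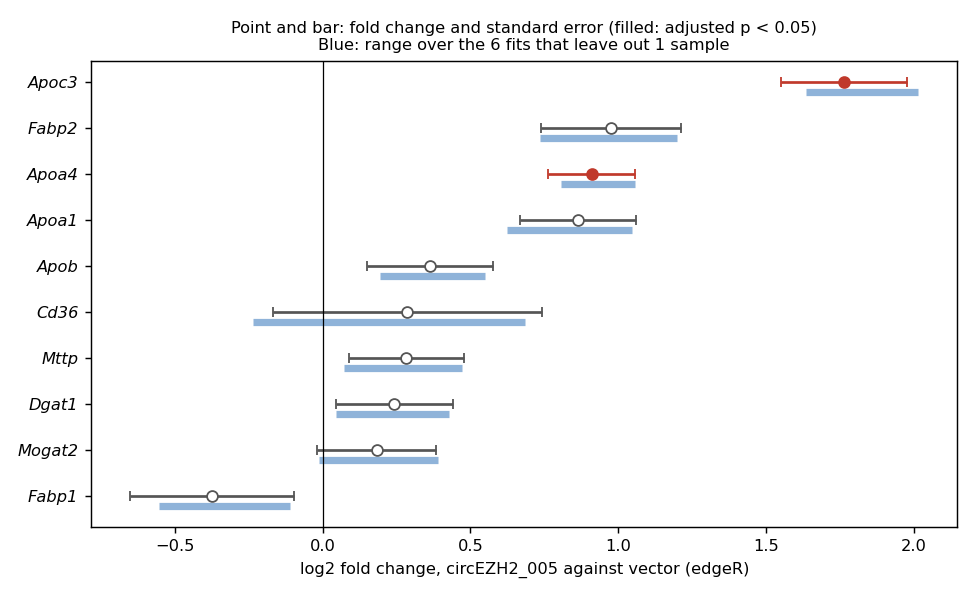
Log2 fold change of each gene between circEZH2_005 and vector samples, with the standard error as a bar, filled where the adjusted p was under 0.05; the blue band is the range over the 6 fits that each left out 1 sample. Apoc3 and Apoa4 are filled, and the bands of Cd36 and Mogat2 reach below 0.

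Apob, the scaffold protein around which each chylomicron is built, had 2858, 2113 and 3038 CPM with the vector and 2493, 4191 and 3622 CPM with circEZH2_005. Sample 1 of the circEZH2_005 group lay between the vector samples and the others above them, so the groups overlapped. The group means differed by 0.36 ± 0.21 on the log2 scale (standard error), and edgeR's adjusted p was 0.350. The difference was 0.55 without circEZH2_005 sample 1, 0.20 without circEZH2_005 sample 2 and 0.22 without vector sample 2.

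In enterocytes the enzyme APOBEC1, with its cofactor A1CF, changes a single C of the Apob mRNA to U and so creates a stop codon that gives the shorter apoB-48. The stretch around that base in transcript Apob-202 (exon 26, chr12:8008039-8008075, plus strand, GENCODE M21 on GRCm38) is shown because gene counts do not separate edited from unedited Apob, and editing was not analysed here. The capital marks the edited base, at position 8008054, in codon 2179 of a coding sequence of 4505 codons before the stop.

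Apob site: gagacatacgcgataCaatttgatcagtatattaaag

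Apobec1 and A1cf, named here for this site, were at 0.44 and -0.19 on the log2 scale, neither of which passed (adjusted p = 0.0847 and 0.279 from edgeR). Apobec1 had means of 40.6 CPM with the vector and 55.0 CPM with circEZH2_005, and A1cf had 107 and 93.6 CPM.

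Mttp, the transfer protein that loads Apob with triglyceride, had 2621, 2332 and 2223 CPM with the vector and 2101, 3702 and 2930 CPM with circEZH2_005. Sample 1 was below every vector sample, and samples 2 and 3 were above every one. Mttp had a log2 fold change of 0.28 ± 0.20 (standard error), with an adjusted p of 0.432 from edgeR. It was 0.47 without circEZH2_005 sample 1 and 0.072 without circEZH2_005 sample 2. Trmt10a and Gm43691 overlap Mttp on the other strand, both at or below a mean of 10.2 CPM in either group.

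Mogat2, the monoacylglycerol acyltransferase of the gut, had 293, 259.6 and 254 CPM with the vector and 209.9, 383 and 323 CPM with circEZH2_005. Dgat1, which adds the last acyl chain of triglyceride, had 444, 343 and 372 CPM with the vector and 332, 574 and 467 CPM with circEZH2_005. For both genes circEZH2_005 sample 1 was the lowest of all samples and samples 2 and 3 the highest. Log2 fold changes were 0.18 ± 0.20 (standard error) for Mogat2 and 0.24 ± 0.20 for Dgat1, at adjusted p of 0.641 and 0.512 from edgeR. Without circEZH2_005 sample 1 they were 0.39 and 0.43, and without circEZH2_005 sample 2 they were -0.014 and 0.045.

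Cd36, the long-chain fatty acid receptor of the brush border, was scarce in these organoids. It had 7.75, 6.14 and 6.36 CPM with the vector and 2.99, 8.48 and 13.2 CPM with circEZH2_005. The circEZH2_005 samples covered a 4.42-fold range, and the vector samples lay within it. A difference of 0.29 ± 0.45 on the log2 scale (standard error), with edgeR's adjusted p at 0.760, turned to -0.24 without circEZH2_005 sample 3.

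Per transcript length, in FPKM, the vector samples were led by Fabp1 at 1750 ± 357 FPKM (SD, n = 3), followed by Fabp2, Apoa1, Apoa4, Mttp, Apob, Mogat2, Dgat1, Apoc3 and Cd36, the last at 1.73 ± 0.199 FPKM. Neighbours in this order whose sample ranges overlapped were Fabp1 and Fabp2, Fabp2 and Apoa1, Apob and Mogat2, and Mogat2 and Dgat1. With circEZH2_005 the order was Fabp2 at 2464 ± 678 FPKM, Apoa1, Apoa4, Fabp1, Mttp, Apob, Apoc3, Mogat2, Dgat1 and Cd36. There the ranges overlapped for Fabp2 and Apoa1, Apoa1 and Apoa4, Apoc3 and Mogat2, and Mogat2 and Dgat1. Fabp1 thus stood at rank 1 of the 10 with the vector and at rank 4 with circEZH2_005. Apoc3 was at 46.0 ± 13.3 FPKM with the vector and 146 ± 17.7 FPKM with circEZH2_005, which took it from rank 1022 to rank 290 among all listed genes by mean FPKM. The ranks of Fabp2 were 29 and 20, those of Apoa1 30 and 23, and those of Apoa4 37 and 26.

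**Figure D3:**
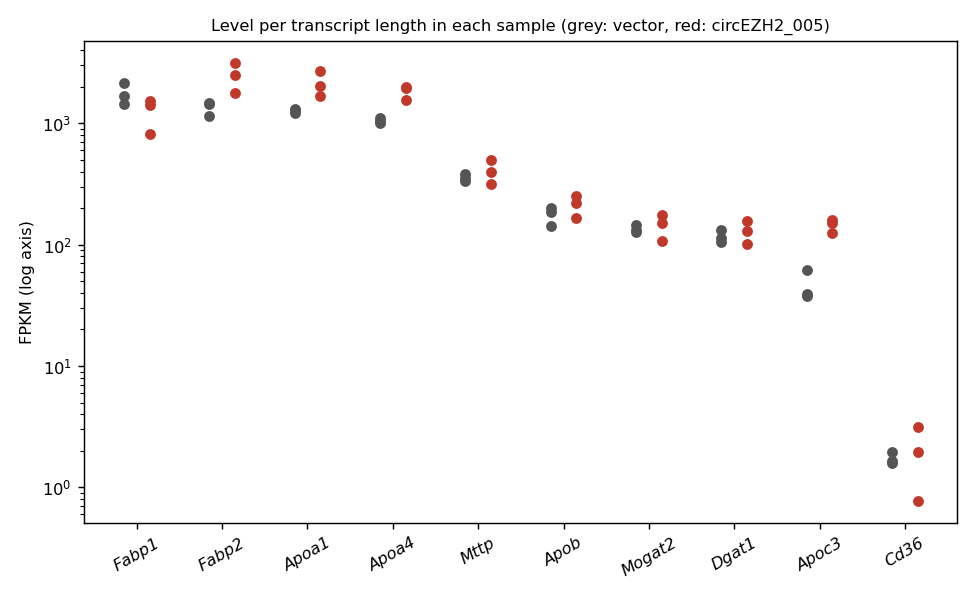
FPKM of each gene in each sample on a log axis, ordered by the mean of the vector samples (grey), with circEZH2_005 samples in red. Fabp1, Fabp2, Apoa1 and Apoa4 lie at or above 817 FPKM in every sample, and Cd36 at or below 3.12 FPKM.

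The 10 genes together took 1.31, 1.16 and 1.19% of all counts with the vector and 1.34, 2.05 and 1.78% with circEZH2_005. Every circEZH2_005 share was above every vector share, but that of sample 1 by little. The means were 1.22 ± 0.0780% and 1.72 ± 0.358% (SD, n = 3), and a two-sided exact permutation test gave p = 0.1, the smallest value that 3 samples against 3 allow. Of the summed FPKM the shares were 1.80, 1.59 and 1.498% with the vector and 1.81, 2.92 and 2.41% with circEZH2_005, with the same exact p of 0.1.

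The spread among the 10 genes followed the samples. Sample 1 of the circEZH2_005 group was the lowest of its group in 10 of 10 genes, and sample 2 was the highest in 8. Sample 1 exceeded the mean of the vector samples in 4 genes, against 9 genes each for samples 2 and 3. The groups did not overlap in 4 genes, all with circEZH2_005 higher, and in 0 genes with circEZH2_005 lower, where 16.4% and 14.2% of all genes tested separated in these directions.

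Marker genes of several cell types also differed between the groups. Of 11 enterocyte markers, 2 rose (Krt20 with a log2 fold change of 1.18 and Ada with 1.27) and 0 fell in edgeR's test, while 8 were higher at an unadjusted p under 0.05 and DESeq2 called 7 higher, with a median log2 fold change of 0.87 and a range from -0.29 for Sis to 1.54 for Mep1a. Sample 1 was the lowest of the circEZH2_005 group in 10 of the 11. The exception was Ada, at 606, 425 and 494 CPM with circEZH2_005, which was highest in sample 1, as the leukocyte markers below were. The mean log2 CPM of the 11, relative to the vector samples, was 0.23, 1.09 and 0.72 in samples 1 to 3. Of 8 crypt stem cell markers, 2 fell (Lgr5 by 0.88 and Smoc2 by 0.81 on the log2 scale), with 4 lower at an unadjusted p under 0.05 and 4 called lower by DESeq2. The median log2 fold change of these 8 was -0.50, and 2 were above 0, Axin2 at 0.31 and Rnf43 at 0.32. Of 7 leukocyte markers 0 passed in edgeR's test, although 5 had an unadjusted p under 0.05 and DESeq2 called 4 higher, with a median log2 fold change of 1.57, and circEZH2_005 sample 1 was the highest of its group in 7 of 7. None of the 7 was at 0 in all samples, and Ptprc, the pan-leukocyte phosphatase, had 44.4 CPM with the vector and 143 CPM with circEZH2_005. The part of these cell types in the values of the 10 genes was not tested. In bulk RNA, more enterocytes and more RNA per enterocyte cannot be told apart.

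**Figure D4:**
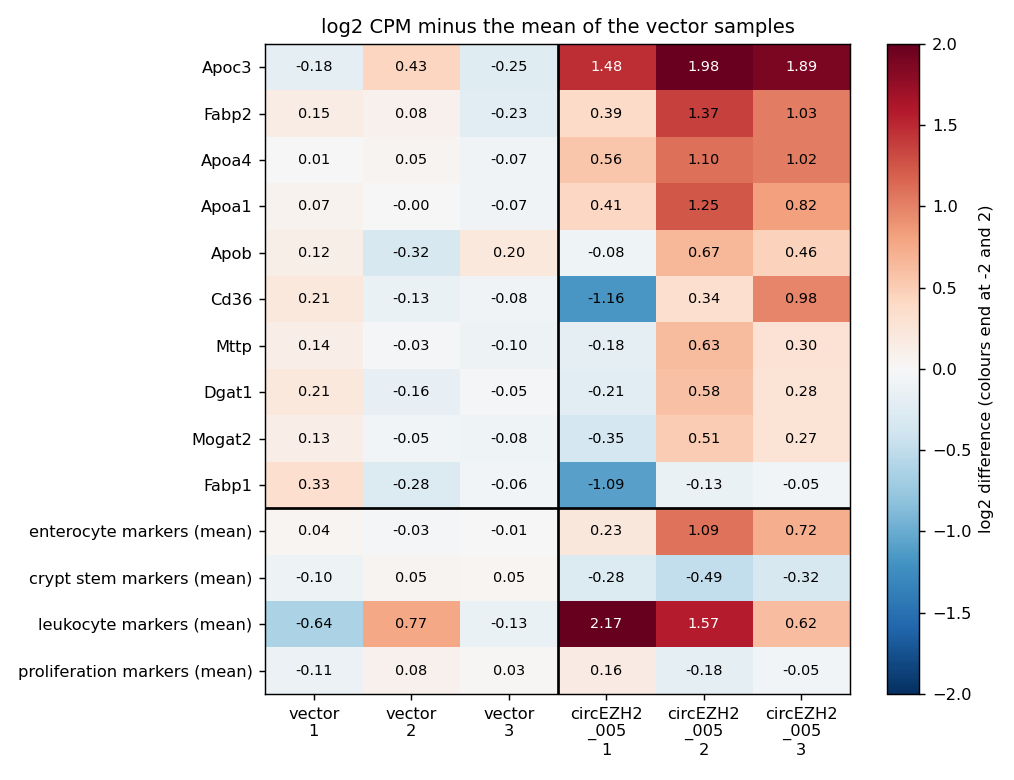
Log2 CPM of each gene, and the mean log2 CPM of 4 marker lists, in each sample minus the mean of the vector samples, written in each cell. Values of circEZH2_005 sample 1 reach from -1.16 for Cd36 to 1.48 for Apoc3 among the 10 genes, while the leukocyte markers are highest in that sample, at 2.17.

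Beyond these 10, 7 lists held 104 further genes of fat handling, of which 102 were in the table and 96 were tested. Of those tested, 11 rose (11.5%) and 1 fell (1.04%) in edgeR's test, with a median log2 fold change of 0.20, beside 2.69% and 0.986% of all genes. The lists were chosen with earlier results of these data known, so these shares do not test fat genes as a set. The calls lay in sterol handling (4 higher and 1 lower of 13), triglyceride synthesis (2 higher of 13), lipid droplets (2 higher of 12), regulators (2 higher of 20) and uptake (1 higher of 14). Of 9 genes of particle assembly and 15 of secretion, among them genes of COPII vesicles, 0 were called in edgeR's test. At an unadjusted p under 0.05, 1 and 2 were higher. DESeq2 called 1 gene higher in each of these lists. The count of 11 depended on single samples, since it was 0 without vector sample 1, 1 without vector sample 3, 3 without circEZH2_005 sample 2, 5 without circEZH2_005 sample 3 and 18 without circEZH2_005 sample 1. So did the calls over all genes, which went from 493 higher to 26, 31, 62, 136 and 553 in the same fits, in that order.

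In sterol handling and uptake, Pltp, the phospholipid transfer protein of plasma, was at 0.760, 0.897 and 1.02 CPM with the vector and 4.41, 4.57 and 3.38 CPM with circEZH2_005. Abca1, which exports cholesterol to apoA-I, had 6.97, 5.84 and 8.74 CPM with the vector and 18.9, 37.8 and 23.3 CPM with circEZH2_005. The groups were separate for both genes, with log2 fold changes of 2.20 and 1.89 (adjusted p = 0.0106 and 0.0215 from edgeR). Scarb1, a lipoprotein and lipid receptor, rose by 1.32 on the log2 scale, and Npc1, the lysosomal cholesterol exporter, by 0.62. Soat1, which esterifies cholesterol, fell from 54.8, 52.3 and 56.3 CPM to 35.2, 27.9 and 33.2 CPM, a log2 fold change of -0.76 (adjusted p = 0.0185 from edgeR). Macrophages also express Abca1, Pltp and Soat1, and the summed CPM of 8 macrophage markers was 30.6 to 40.7 with the vector and 38.9 to 59.9 with circEZH2_005. The cells were sorted for Lgr5-GFP before culture, and the leukocyte markers given above had counts in these samples. The part of macrophages and other leukocytes in these values was not tested.

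In triglyceride synthesis, the phosphatidate phosphatase genes Lpin1 and Lpin2 rose by 1.16 and 1.00 on the log2 scale (adjusted p = 0.0191 and 0.0214 from edgeR), from means of 6.87 and 61.3 CPM. Among lipid droplet genes, Cidec, a protein of droplet fusion, rose by 1.22 and Lipe, hormone-sensitive lipase, by 1.01 (adjusted p = 0.0130 and 0.0279 from edgeR). Adipocytes also express Cidec and Lipe, and the summed CPM of 5 adipocyte markers was at most 1.15 in any sample. Of the regulators, Prdm1, a transcriptional repressor of the developing gut epithelium, and Klf4, a transcription factor of differentiated epithelium, rose by 2.16 and 1.54 on the log2 scale (adjusted p = 0.0130 and 0.0138 from edgeR). In leukocytes Prdm1 is also expressed, and the summed leukocyte markers given above were also higher in all circEZH2_005 samples. The same sort came before culture, and the part of leukocytes in this value was not tested.

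The other extremes of the lists did not pass. In uptake the log2 fold changes ran from -1.25 for Slc27a5, a bile acid and fatty acid CoA ligase, to 1.58 for Fabp4, the adipocyte carrier. Slc27a5 had at most 48 counts in any sample. Fabp4 had 5, 8 and 149 counts with the vector and 162, 130 and 178 with circEZH2_005, so its groups overlapped. In droplets they ran from -0.88 for Hilpda to 1.99 for Plin4, which had at most 43 counts in any sample. In assembly Apoa2, at 0.963 CPM with the vector, was at -0.78 and Apoe at 0.49. In secretion Sec13, of the COPII coat, was at -0.05 and Plagl2 at 0.36. The lowest value in triglyceride synthesis was -0.47 for Awat2, and that among regulators was -0.42 for Mlxipl.

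**Figure D5:**
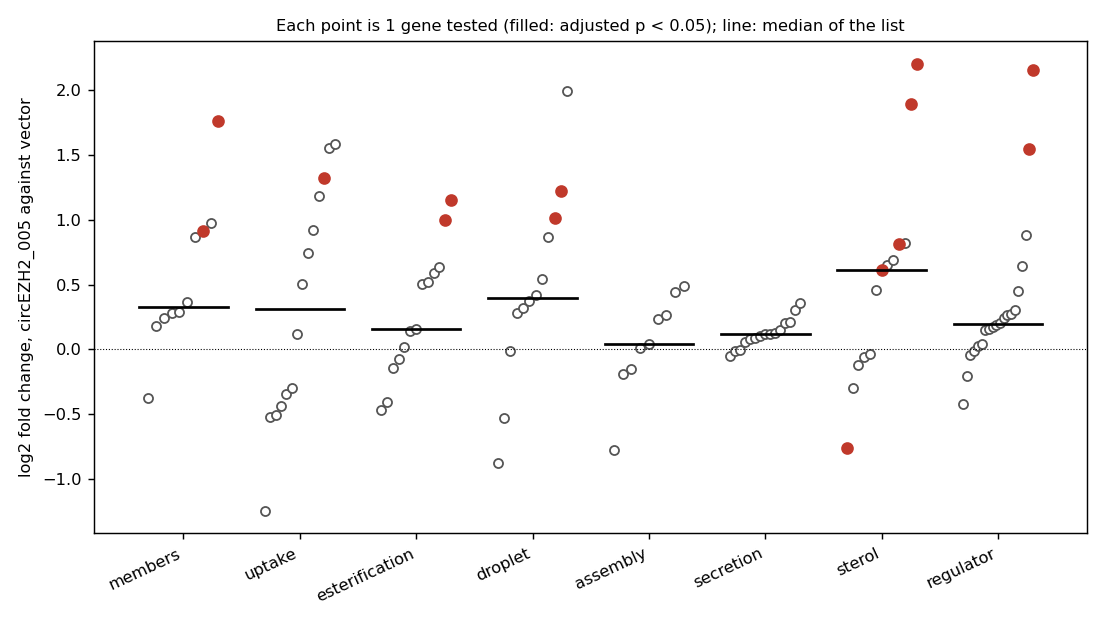
Log2 fold change of every tested gene of the 10 members and of the 7 further lists, 1 point per gene, filled where the adjusted p was under 0.05, with the median of each list as a line. The filled points number 4 above and 1 below 0 in sterol handling, and assembly and secretion hold none.

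The genes whose profile over the 6 samples was closest to the mean profile of the 10 genes, among 11592 other genes whose mean reached 1 FPKM, were Sec14l2 (Pearson's r = 0.997), Podn (0.994), Mark4 (0.994), Phyh (0.992) and Gdpd2 (0.992). Sec14l2 encodes a lipid-binding protein and Phyh a peroxisomal enzyme that breaks down phytanic acid. These 5 had log2 fold changes between 0.15 and 1.23, and 0 passed the adjusted p in edgeR's test, the lowest being 0.0872. At an unadjusted p under 0.05, 4 were higher, and DESeq2 called 3. The correlations describe 6 samples that share libraries and depth with the 10 genes.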

How the data were processed

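RNA was selected with oligo(dT) beads from total RNA. The submitters' processing notes name cutadapt 1.9, HISAT2 2.0.4, StringTie 1.3.4d and DESeq2 on the mm10 genome (GRCm38). The counting tool's settings, its annotation and any use of strand are not given in the sources used here. The authors deposited the count of each gene in each sample, not normalized, and they deposited FPKM (fragments scaled for transcript length and library size) as computed by them. Every sample column was used.

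Counts were filtered with filterByExpr, scaled with TMM (factors 0.931 to 1.04) and tested in edgeR 4.0.16 (R 4.3.3) by quasi-likelihood, 3 circEZH2_005 against 3 vector samples, without a covariate. Log2 fold changes are circEZH2_005 against vector on the count scale. Adjusted p-values are Benjamini-Hochberg over the 18348 genes tested, and a call is an adjusted p under 0.05. CPM uses the TMM library sizes. Shares were compared with exact permutation tests.

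Alternatives were DESeq2 1.42.0, RLE scaling, no filter, at least 10 counts in every sample, limma 3.58.1 on log2(FPKM + 1) or log2(FPKM + 0.1) over genes whose mean FPKM was 0.5 or more, a replicate block, each sample left out, and a further fit without 2 samples that was chosen after seeing the data.

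The 10 genes, the 7 lists of fat genes and the cell type markers were chosen with earlier results of these data known. The text names all 10 genes, of the other fat genes those with an adjusted p under 0.05 and each list's largest and smallest log2 fold change, the marker genes that stand beside a result, out of those with a list's largest, smallest or highest value, and the 5 genes with the most similar profile. Hnf4a, Apobec1, A1cf, the neighbours on chromosome 9, the overlapping genes and the markers Krt20, Ada, Smoc2 and Axin2 fall outside that rule and were added after their values were seen. A value that the rule would name is left out here. Of the gene identifiers, 28678 of 28752 were found in GENCODE M21, 25003 with the same position, as were 8 of the 10 genes. The depth per sample leaves the spread over 3 samples, more than counting error, as the limit for genes at these levels.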

Additional observations from a re-analysis of the deposited data

How the results depend on the processing

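Of the 10 genes, 2 were higher at an adjusted p under 0.05 in edgeR and 0 lower. The count of higher genes was 4 with DESeq2 (Apoc3, Apoa4, Apoa1 and Fabp2), 3 with at least 10 counts in every sample (with Apoa1 at an adjusted p of 0.0459 in edgeR) and 1 without the filter (Apoc3), and between 0 and 4 with 1 sample left out. It was 4 without circEZH2_005 sample 1, 1 without circEZH2_005 sample 3, and 0 without circEZH2_005 sample 2, vector sample 1 or vector sample 3. Over all genes the calls in these fits, in that order, were 553, 136, 62, 26 and 31 higher and 128, 33, 6, 2 and 2 lower. With all samples they were 493 higher and 181 lower. The count by fold change and unadjusted p, 1 as reported, lay between 1 and 4 with 1 sample left out, at 4 without circEZH2_005 sample 1 and at 2 without vector sample 1 or vector sample 2. Leaving out circEZH2_005 sample 1 together with vector sample 2 gave 4 genes by either call. Over all genes that fit called 1449 higher and 474 lower at an adjusted p under 0.05. That fit was chosen after seeing the data, because sample 1 was the lowest of its group in all 10 genes and vector sample 2 had the highest leukocyte markers of its group. Its counts thus rest on a choice made on the values they count.

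Of the other fat genes, 11 were higher, against 17 with at least 10 counts in every sample, 26 with DESeq2, 7 without the filter, 24 in the fit without 2 samples, and 0 to 18 with 1 sample left out (18 without circEZH2_005 sample 1, 3 without circEZH2_005 sample 2, 5 without circEZH2_005 sample 3, 0 without vector sample 1 and 1 without vector sample 3). The 1 lower gene became 2 with at least 10 counts, 7 with DESeq2, 4 and 6 with limma at pseudocounts of 0.1 and 1, 4 without the 2 samples, and 0 to 3 with 1 left out (0 without vector sample 1 or 3, and 3 without vector sample 2). The direction turned for Cd36, to a log2 fold change of -0.022 with limma at a pseudocount of 0.1 and to -0.24 without circEZH2_005 sample 3 (-0.24 to 0.68 with 1 sample left out), and for Mogat2, to -0.014 without circEZH2_005 sample 2 (-0.014 to 0.39). The cause was not tested. No other gene of the 10 turned in any of the 14 alternatives. RLE scaling changed none of these counts, and over all genes it gave 473 higher and 187 lower. All-gene calls, higher and lower, were 741 and 287 with at least 10 counts, 1588 and 701 with DESeq2, and 132 and 37 without the filter. With limma they were 323 and 319 at a pseudocount of 0.1, and 371 and 364 at a pseudocount of 1. Without vector sample 2 they were 1098 and 334, and in the fit without 2 samples 1449 and 474. The median log2 fold change of the 10 lay between 0.23 and 0.62 with 1 sample left out (0.62 without circEZH2_005 sample 1) and was 0.21 with limma.

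The labels give both groups replicate numbers 1 to 3. Deviations of samples with the same number correlated at -0.14, -0.02 and 0.04 across genes. Whether such samples shared a culture, day or animal is not stated, and these correlations cannot settle it. With the replicate block 1 of the 10 genes was called (Apoc3), with Apoa4 at an adjusted p of 0.0606 in edgeR, and over all genes the calls went from 493 to 241 higher and from 181 to 36 lower.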

Other observations

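Secretory lineages of the organoids differed by gene. Of 4 goblet cell markers, 1 rose with circEZH2_005 and 0 fell at an adjusted p under 0.05 in edgeR. That was Clca1, a secreted protein of mucus, with means of 579 CPM with the vector and 981 CPM with circEZH2_005 (log2 fold change 0.76). Muc2, the gel-forming mucin, had 768 and 892 CPM and did not pass. Spink4 had a log2 fold change of -0.28, with an adjusted p of 0.149 from edgeR and an unadjusted p under 0.05. At that unadjusted threshold in edgeR, 2 of the 4 goblet markers were higher and 1 lower, and DESeq2 called 2 higher and 0 lower. Of 3 enteroendocrine markers, 1 fell, Neurog3, the transcription factor of endocrine progenitors, by 1.11 on the log2 scale, while Chga had a log2 fold change of 0.36 and did not pass. In edgeR 1 of these 3 was higher and 2 lower at an unadjusted p under 0.05, and DESeq2 called 1 higher and 1 lower. All 3 Paneth cell markers had negative log2 fold changes, with 0 called in edgeR, 1 at an unadjusted p under 0.05 and 1 called lower by DESeq2, and Mmp7 was the lowest at -0.92 (adjusted p = 0.0692 from edgeR). Of 4 proliferation markers 0 were called by edgeR or DESeq2 or had an unadjusted p under 0.05 in edgeR, and Mki67 had 524 and 522 CPM.

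The summed CPM of 6 fibroblast markers was at most 11.1 in any sample, that of 4 hepatocyte markers at most 2.66, and that of 6 endothelial markers at most 5.71. Pecam1 was the single endothelial marker tested and rose, from a mean of 0.982 to 3.74 CPM (adjusted p = 0.0377 from edgeR). The other endothelial markers had too few counts to be tested, so this is a result for 1 gene and not for endothelial cells. With circEZH2_005 it had 5.22, 3.44 and 2.55 CPM, highest in sample 1, as were the summed leukocyte markers. The part of leukocytes in this value was not tested.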
